A study of Mus musculus with 12 samples.

Results

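The 41 genes described here encode parts of the lysosome: membrane proteins, subunits of its proton pump, the proteases and other hydrolases inside it, proteins that handle its lipids, and regulators. They were taken by symbol from a table of 45777 genes, and all 41 were found and passed the filter on low counts, which kept 19163 genes. Expression was measured by bulk RNA sequencing of astrocytes purified from the cortex of mice at postnatal day 14, in 4 groups of 3 libraries. Cre- animals carried floxed alleles of Nr3c1, the gene of the glucocorticoid receptor, and no recombinase. AGR cKO animals carried the same floxed alleles and the Aldh1l1-CreERT2 transgene, in which the Aldh1l1 promoter drives a tamoxifen-dependent Cre in astrocytes. In each genotype 1 group served as control (Cre- control, AGR cKO control) and 1 was taken from the dam for 3 hours daily from day 1 to day 14 (Cre- ESD, AGR cKO ESD). Every animal, the Cre- controls included, received 4-hydroxytamoxifen on days 5 to 7, so its own effect was not measured. Cells were purified by immunopanning and by magnetic beads. The labels do not say whether a library came from 1 animal or a pool.

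Lysosomes are acidic organelles that break down material delivered by endocytosis, phagocytosis and autophagy. A proton-pumping ATPase, the V-ATPase, acidifies them, most hydrolases inside work only at acid pH, and membrane proteins with heavy sugar coats protect the boundary and carry products out. TFEB and TFE3, transcription factors of the MiT/TFE family, bind a short E-box in the promoters of many lysosomal genes. In the brain, astrocytes and microglia both clear synaptic and other debris through lysosomes, and loss of single lysosomal enzymes causes storage diseases. The series set out to compare the astrocyte response to early life stress with and without the receptor.

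Library totals ran from 42603546 to 52130081 counts. Nr3c1 had 214.1, 210.1 and 237.2 CPM (counts scaled to a common library size) in Cre- control and 209.1, 205.2 and 198.7 in Cre- ESD. It had 102, 93.22 and 108 CPM in AGR cKO control and 90.55, 66.55 and 95.9 in AGR cKO ESD, so every library followed its genotype label. Nr3c1 RNA was thus lower but not absent in AGR cKO libraries, and receptor loss below names the genotype comparison, AGR cKO against Cre-. The 12 astrocyte markers summed to 40760 to 56400 CPM per library and the 12 neuronal markers to 28.63 to 61.87. Markers of other cells were present and moved with genotype, as did some of the astrocyte markers. The 16 microglia markers, none at 0 in any library, summed to 307 to 950.6 CPM (Cre- control), 165.4 to 400.6 (AGR cKO control), 427 to 748.9 (Cre- ESD) and 138.4 to 395.4 (AGR cKO ESD). The 12 endothelial markers, none at 0 in any library, summed to 430.1 to 2236, 445.9 to 901.9, 542.2 to 1273 and 306.7 to 578.6 CPM in the same order. Cre- control 1 had the highest sum for both of these lists. The 10 markers of mural cells and fibroblasts summed to 2545 to 4972, 4437 to 5133, 2556 to 5057 and 1605 to 3610 CPM in the same order. In bulk samples, fewer cells of a type and less RNA per cell cannot be told apart.

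Levels between genes were compared as deposited TPM, which is per transcript length. Together the 41 genes took 9709 to 10490 TPM of each library. Psap, the precursor of the saposins that help enzymes reach sphingolipids, had the highest mean, 2410 TPM (2257 to 2634 over 12 libraries), which placed it 33rd of all genes in the table. Lamp1, a heavily glycosylated protein of the lysosomal membrane, followed at 1362 TPM (1201 to 1551), and Ctsd, the aspartic protease cathepsin D, at 867 TPM (799.2 to 1007). The tetraspanin Cd63 had 590.7 TPM (486.5 to 668.1) and the cysteine protease Ctsb 388.1 TPM (337.5 to 444.7). The ranges of these first 3 genes did not overlap those of any member below them.

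Within each role the levels were uneven. Among membrane proteins, the ranges of Lamp2 (245.3 to 287.3 TPM), which shares its build with Lamp1, and of Scarb2 (176.7 to 207.9), the carrier that brings glucocerebrosidase to the lysosome, did not overlap. Npc1, which moves cholesterol out, had 154.4 to 199.7 TPM, and the calcium channel Mcoln1 had 54.5 to 65.89. Cln3, mutated in a childhood neurodegenerative disease, was lowest of the 7 at 27.67 to 40.87 TPM. In the proton pump, Atp6v0c, which forms the proton-carrying ring of the membrane sector, had a mean of 372.1 TPM, and the accessory subunit Atp6ap1 219.8. Atp6v0d1, which joins the sectors, had 145.8 TPM. Subunits of the ATP-hydrolysing sector were lower: Atp6v1a had 95.69, Atp6v1b2 87.47 and Atp6v1h 64.56 TPM.

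Of the enzymes that cut proteins, Lgmn (legumain, an asparaginyl endopeptidase) averaged 228.1 TPM, Ctsl 207.3, the tripeptidyl peptidase Tpp1 165.3, Ctsa 139.3 and Ctsz 127.6. Ctsh, an aminopeptidase cathepsin, averaged 44.96 TPM and varied most of all 41 genes. Enzymes that remove sugars or sulfate were mostly low. Gaa, which degrades glycogen, stood apart in this role at 179.4 TPM, and Hexa, a subunit of hexosaminidase A, at 95.29. Galc, Glb1, Gusb and Man2b1 averaged 40.47 to 49.69 TPM, and Neu1, Naglu, Gla and Sgsh 17.13 to 22.68. Sgsh, a sulfatase for heparan sulfate, was the lowest member. For lipids, the ceramidase Asah1 averaged 222.6 TPM, the sphingomyelinase Smpd1 189.7, the thioesterase Ppt1 173.9, the cholesterol carrier Npc2 132.5 and the acid lipase Lipa 37.52. Among regulators, the GTPase Rab7 averaged 348.5 TPM and the progranulin gene Grn 182.4, against 32.57 for Tfe3 and 27.75 for Tfeb. The plot of levels by gene shows this order.

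**Figure D1:**
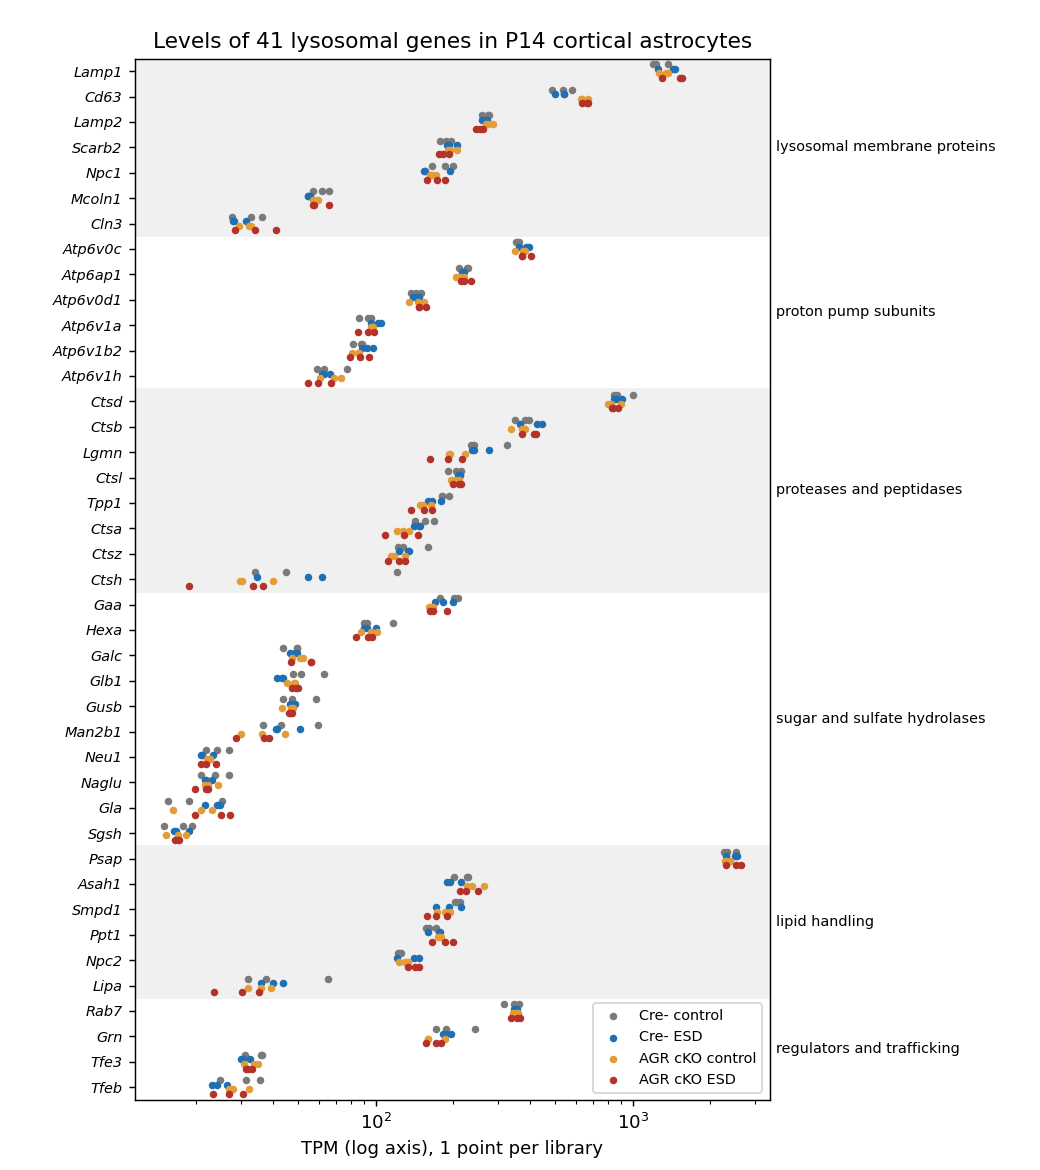
Deposited TPM of each of the 41 genes on a log axis, 1 point per library, coloured by group and ordered by role. Psap, Lamp1 and Ctsd lie highest, Sgsh lies lowest at 17.13 TPM on average, and the points of Ctsh spread most.

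The members varied little among replicates. Their median standard deviation within groups was 0.105 on the log2 CPM scale, against 0.215 for all genes tested and 0.124 for genes at least as abundant as the lowest member. The highest library exceeded the lowest by 5.81-fold in CPM for Ctsh, 2.67-fold for Lipa, 1.95-fold for Man2b1, 1.80-fold for Lgmn and 1.72-fold for Gla. Rab7, Ctsl and Mcoln1 had the narrowest ranges, 1.15-fold, 1.14-fold and 1.17-fold. Cre- control 1 held the highest CPM of 14 members, among them Ctsh, Lipa, Man2b1, Lgmn, Grn and Ctsz, and the lowest of 8 others, among them Psap, Lamp1, Cd63 and Npc2. AGR cKO control 1 held the lowest CPM of 11 members and AGR cKO ESD 2 of 9.

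Some promoters of these genes held letters that the choice of genes did not use. RefSeq promoter windows (GRCm38.p6, 250 bases before to 50 after a start) were found for 35 of the 41 genes, 45 windows in all. Both strands were searched for the E-box core CACGTG, for TCACGTGA, which contains that core and is the centre of the element bound by TFEB and TFE3, and for a glucocorticoid response element consensus, GNACA and TGTNC set 3 bases apart. CACGTG stood in 14 of the 45 windows (31.1%), each of a different gene, against 7.15% of all 32851 windows. TCACGTGA stood in 7 windows (15.6%) against 0.974% of all windows. The consensus stood in 0 of 45, against 0.475% of all windows, which says only that these letters are not in these windows. Of 107 other lysosomal genes, listed for comparison, 86 had windows, 98 in all, and CACGTG stood in 17.3% and TCACGTGA in 8.16% of those. A match is a run of letters, not a site shown to be bound.

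The 7 genes with TCACGTGA came from 4 roles: the pump subunits Atp6v0d1 and Atp6v1a, the membrane proteins Cln3 and Mcoln1, the proteases Ctsa and Ctsd, and Gla. Ctsl, Gaa, Glb1, Lamp1, Lgmn, Naglu and Sgsh held CACGTG alone. The stretches below are examples that carry these letters, in capitals. Gla, Ctsd and Mcoln1 are among the 7 genes that hold the longer element. They read 5′ to 3′ on the strand of the gene, from GRCm38.p6.
Lgmn, chr12:102439117-102439158, minus strand: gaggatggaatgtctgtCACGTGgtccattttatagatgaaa
Glb1, chr9:114401013-114401054, plus strand: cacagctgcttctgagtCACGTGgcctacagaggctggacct
Lamp1, chr8:13159083-13159124, plus strand: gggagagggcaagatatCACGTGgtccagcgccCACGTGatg
Gla, chrX:134601208-134601249, minus strand: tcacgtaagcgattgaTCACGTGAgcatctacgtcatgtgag
Ctsd, chr7:142387901-142387942, minus strand: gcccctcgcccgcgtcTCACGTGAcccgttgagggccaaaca
Mcoln1, chr8:3500457-3500498, plus strand: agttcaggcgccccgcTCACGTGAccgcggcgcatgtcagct
Relative to the start, the CACGTG shown begins at -49 in Lgmn, -48 in Glb1, -227 in Gla, -98 in Ctsd and -45 in Mcoln1. In Lamp1 the first CACGTG shown begins at -61. In 12 of the 14 genes the window with the core lies at the start of the transcript with the largest share of the gene's TPM. In Lgmn it lies at an inner start, 721 bases downstream of the start of the transcript that held 98.98% of Lgmn TPM. The other Lgmn window, whose start lies 85 bases downstream of that transcript's start, held none of the 3 motifs. The core in Ctsa also lies before an inner start, 869 bases downstream. The window of Cd63, at a start upstream of that of its leading transcript, held none of the 3 motifs.

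Receptor loss was compared first as the mean of both AGR cKO groups against the mean of both Cre- groups, 6 libraries each, by edgeR's quasi-likelihood test with Benjamini-Hochberg adjustment over 19163 genes. Legumain mRNA was lower and Cd63 mRNA higher in AGR cKO than in Cre- libraries. Lgmn (gene 19141, chromosome 12, 102394082 to 102439728, mm10) encodes the endopeptidase that also matures several cathepsins. It had 212.7, 171.9 and 165.1 CPM in Cre- control and 198.6, 168.8 and 167.8 in Cre- ESD. It had 131, 135.4 and 155.1 CPM in AGR cKO control and 117.9, 129.8 and 153.1 in AGR cKO ESD. Every AGR cKO library lay below every Cre- library, as for 1.4% of all genes tested, and within each genotype the control and ESD values overlapped. The log2 fold change was -0.40 ± 0.09 (standard error; adjusted p = 0.0328).

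Cd63 (gene 12512, chromosome 10, 128896231 to 128912822, mm10) encodes a tetraspanin of late endosomes, lysosomes and exosomes. It had 144.1, 188.3 and 170.9 CPM in Cre- control and 175.4, 172.9 and 160.3 in Cre- ESD. It had 192.2, 201.6 and 210.6 CPM in AGR cKO control and 219.2, 195.4 and 211.6 in AGR cKO ESD. All 6 AGR cKO libraries lay above all 6 Cre- libraries, as for 1.37% of all genes tested, although the nearest, Cre- control 2 and AGR cKO control 1, were 188.3 and 192.2. The log2 fold change was 0.28 ± 0.07 (edgeR adjusted p = 0.043).

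These were the only members edgeR called at an adjusted p under 0.05. That is 1 of 41 higher, where 1.55% of all genes tested were called higher, and 1 of 41 lower, where 1.94% were called lower, so the share of members called was near that of all genes. DESeq2 called 4 of 41, with Tpp1 and Gaa in addition, where it called 9.03% of all genes. In all, 12 members were higher and 29 lower, with a median log2 fold change of -0.04. Over all genes 49.4% were higher, with a median of 0.00 (-0.0023). At an unadjusted p under 0.05, 2 members were higher (8.7% of all genes) and 10 lower (11.3% of all genes). Both calls were near the threshold. Lgmn was not called without Cre- control 1 (adjusted p = 0.0517), Cre- ESD 1 (0.0745), AGR cKO control 1 (0.0874) or 2 (0.0965), or AGR cKO ESD 1 (0.0836) or 2 (0.0632). Cd63 was called without Cre- control 1 (adjusted p = 0.0499), Cre- control 2 (0.023) or AGR cKO ESD 2 (0.0484), and not without any of the other 9 libraries, where it reached up to 0.108.

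All 8 protein-cutting enzymes were lower. Of these, edgeR called 1, where 1.94% of all genes were called lower. At an unadjusted p under 0.05 were 5 of them, where 11.3% of all genes were lower. With a microglia marker covariate (described with the marker genes) 5 of the 8 were lower. Ctsh had 63.89, 19.58 and 25.24 CPM in Cre- control and 35.8, 30.77 and 19.83 in Cre- ESD. It had 16.35, 16.75 and 22.49 CPM in AGR cKO control and 11, 20.12 and 18.87 in AGR cKO ESD. Its groups overlapped and Cre- control 1 stood far above the rest, and the log2 fold change was -0.88 ± 0.28 (edgeR adjusted p = 0.107). Without Cre- control 2 Ctsh was called (adjusted p = 0.0465).

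Tpp1 had 222.6, 228.7 and 225.3 CPM in Cre- control, 203.7, 207 and 225.1 in Cre- ESD, 176.8, 189.9 and 202.7 in AGR cKO control and 198.1, 165.1 and 207.7 in AGR cKO ESD. The 2 control groups did not overlap, the 2 ESD groups did, and the log2 fold change was -0.20 ± 0.06 (edgeR adjusted p = 0.103, DESeq2 0.0423). Ctsa, which also protects beta-galactosidase and neuraminidase in a complex, stood at -0.20 ± 0.07 (adjusted p = 0.143) and Ctsz at -0.14 ± 0.06 (0.218). The 3 most abundant cathepsins lay close to 0: Ctsd at -0.08 ± 0.06, Ctsb at -0.05 ± 0.07 and Ctsl at -0.02 ± 0.05.

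Among 10 enzymes for sugars and sulfate, 8 were lower and 2 higher. Here edgeR called 0, with 2 lower at an unadjusted p under 0.05 (11.3% of all genes). DESeq2 called 1, Gaa, where it called 9.03% of all genes in either direction. Without ESD, Gaa had 233.2, 265.7 and 221.2 CPM in Cre- and 194.5, 199.9 and 206.4 in AGR cKO animals, and these did not overlap. With ESD it had 217.4, 226.5 and 251.2 CPM in Cre- and 214.8, 227.2 and 203.2 in AGR cKO animals, and these overlapped. Its log2 fold change was -0.18 ± 0.06 over both conditions (edgeR adjusted p = 0.112, DESeq2 0.0469). Man2b1, a mannosidase, stood at -0.30 ± 0.13 (adjusted p = 0.221). The other 8, Gla, Galc, Glb1, Gusb, Hexa, Neu1, Naglu and Sgsh, lay between -0.08 (Naglu) and 0.10 (Galc).

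Lipid proteins lay on both sides. Asah1, which splits ceramide, had 168, 184.2 and 157.8 CPM in Cre- control and 157.5, 149.7 and 171.8 in Cre- ESD, against 202.3, 187.4 and 178.4 in AGR cKO control and 192.9, 163.2 and 203.8 in AGR cKO ESD. Its groups overlapped, and the log2 fold change was 0.19 ± 0.07 (edgeR adjusted p = 0.149). Lipa, which frees cholesterol from its esters, stood at -0.38 ± 0.16 (adjusted p = 0.203) and Smpd1 at -0.17 ± 0.07 (0.228). Psap lay at -0.01 ± 0.07, Npc2 at 0.05 ± 0.06 and Ppt1 at 0.10 ± 0.06. The 6 pump subunits stayed between -0.09 (Atp6v1h) and 0.03 (Atp6v0d1), with 0 at an unadjusted p under 0.05. The 6 membrane proteins other than Cd63 lay between -0.06 (Npc1) and 0.07 (Lamp1). Of the regulators, Grn stood at -0.21 ± 0.07 (adjusted p = 0.133), Tfeb at 0.02 ± 0.09 (0.23 ± 0.10 with the microglia covariate, edgeR adjusted p = 0.445), Tfe3 at -0.02 ± 0.06 and Rab7 at 0.02 ± 0.05.

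**Figure D2:**
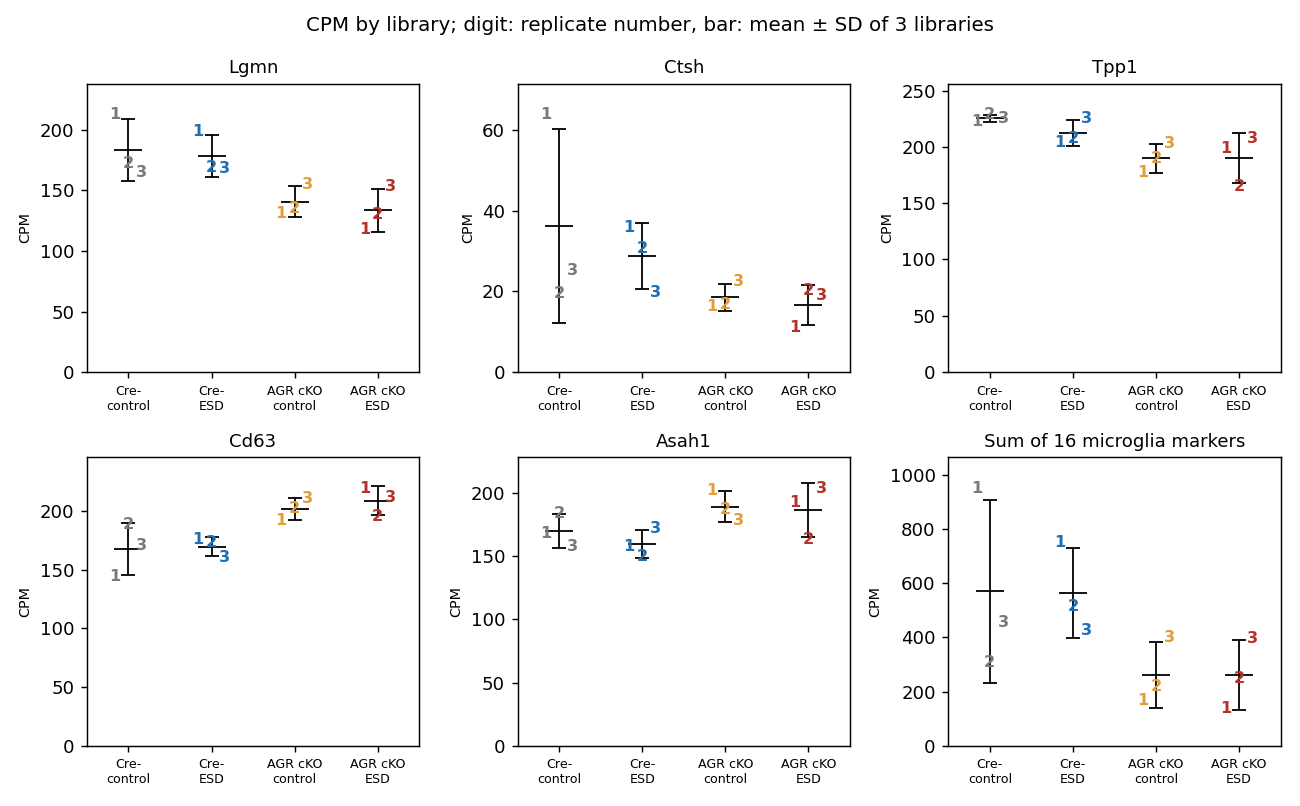
CPM of 5 members and the summed CPM of 16 microglia markers in the 4 groups. Each digit is a library, placed by its replicate number, and bars are the mean ± SD of 3 libraries; Lgmn and Cd63 separate the genotypes in all 12 libraries, and Cre- control 1 is highest for Lgmn, Ctsh and the microglia sum.

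The microglia markers moved in the same comparison. All 16 had lower values in AGR cKO libraries, with a median log2 fold change of -1.12 and 16 at an unadjusted p under 0.05 (11.3% of all genes were lower at that p), and edgeR called 0 and DESeq2 10 of them. The 12 endothelial markers were all lower too, with a median of -0.96 and 9 at an unadjusted p under 0.05, and 0 were called by edgeR or DESeq2. Of 6 markers of ependyma and choroid plexus 5 were lower, 4 of them called by both tools, where edgeR called 1.94% of all genes lower. The other marker stood at 2.75 and was not called, and the median of the 6 was -0.67. Of 6 markers of oligodendrocyte precursors 5 were lower, with a median of -0.45 (-0.445) and 0 called by edgeR, 3 at an unadjusted p under 0.05 and 1 called by DESeq2. The 10 markers of mural cells and fibroblasts were all lower, with a median of -0.26, 1 at an unadjusted p under 0.05 and 0 called by edgeR or DESeq2. Of the 12 astrocyte markers 4 were higher and 8 lower, with a median of -0.06. Among them edgeR called 1 higher and 2 lower, where it called 1.55% and 1.94% of all genes. DESeq2 also called 1 higher and 2 lower (9.03% of all genes in either direction). The part of these lists, other than microglia, in the members' values was not tested. With the mean standardized microglia marker level added to the fit as a covariate, 0 of 41 members were called by edgeR, where 0.334% of all genes were called, and 2 members (Cd63 and Tfeb) were higher and 2 (Gaa and Smpd1) lower at an unadjusted p under 0.05. In that fit 19 members were higher and 22 lower, with a median of -0.01, and 11 members turned from lower to higher and 4 from higher to lower. There Lgmn stood at -0.14 ± 0.07 (adjusted p = 0.564) and Cd63 at 0.21 ± 0.09 (0.46). Ctsh stood at 0.09, Man2b1 at 0.12, Lipa at 0.02, Ctsz at 0.02, Ctsa at -0.01 and Grn at -0.01. Gaa stood at -0.25 ± 0.08, farther from 0 than without the covariate, as did Smpd1 at -0.26 ± 0.10. Tpp1 stood at -0.19 ± 0.09 and Asah1 at 0.13 ± 0.10. The covariate itself differs between the genotypes, from -0.25 to 1.60 in Cre- and -1.65 to 0.17 in AGR cKO libraries, so the fit separates marker level from genotype only in part.

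Within single conditions the comparison is of 3 libraries against 3. In control animals edgeR called 0 of 41 (0.0157% of all genes). DESeq2 called 0 of 41 too, where over all genes it called 83 higher and 190 lower. At an unadjusted p under 0.05, 1 member was higher (4.28% of all genes) and 6 were lower (5.94%). With ESD edgeR called 0 of 41 (1.04% of all genes), with 2 higher (7.92% of all genes) and 1 lower (7.68%) at an unadjusted p under 0.05, and DESeq2 called 1, Lgmn (adjusted p = 0.0457), where it called 5.17% of all genes. Lgmn stood at -0.38 ± 0.12 in control and -0.42 ± 0.12 in ESD animals, and Cd63 at 0.26 ± 0.09 and 0.30 ± 0.09. In control animals the CPM of the genotypes did not overlap for 1 member with a higher value in AGR cKO, Cd63, where 8.54% of all genes did so. They did not overlap for 3 with a lower value, Lgmn, Tpp1 and Gaa (8.39% of all genes). With ESD they did not overlap for 3 with a higher value, Cd63, Mcoln1 and Glb1 (10.3% of all genes). On the lower side were 7 members, Lgmn, Ctsa, Man2b1, Naglu, Lipa, Scarb2 and Grn (9.64% of all genes).

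**Figure D3:**
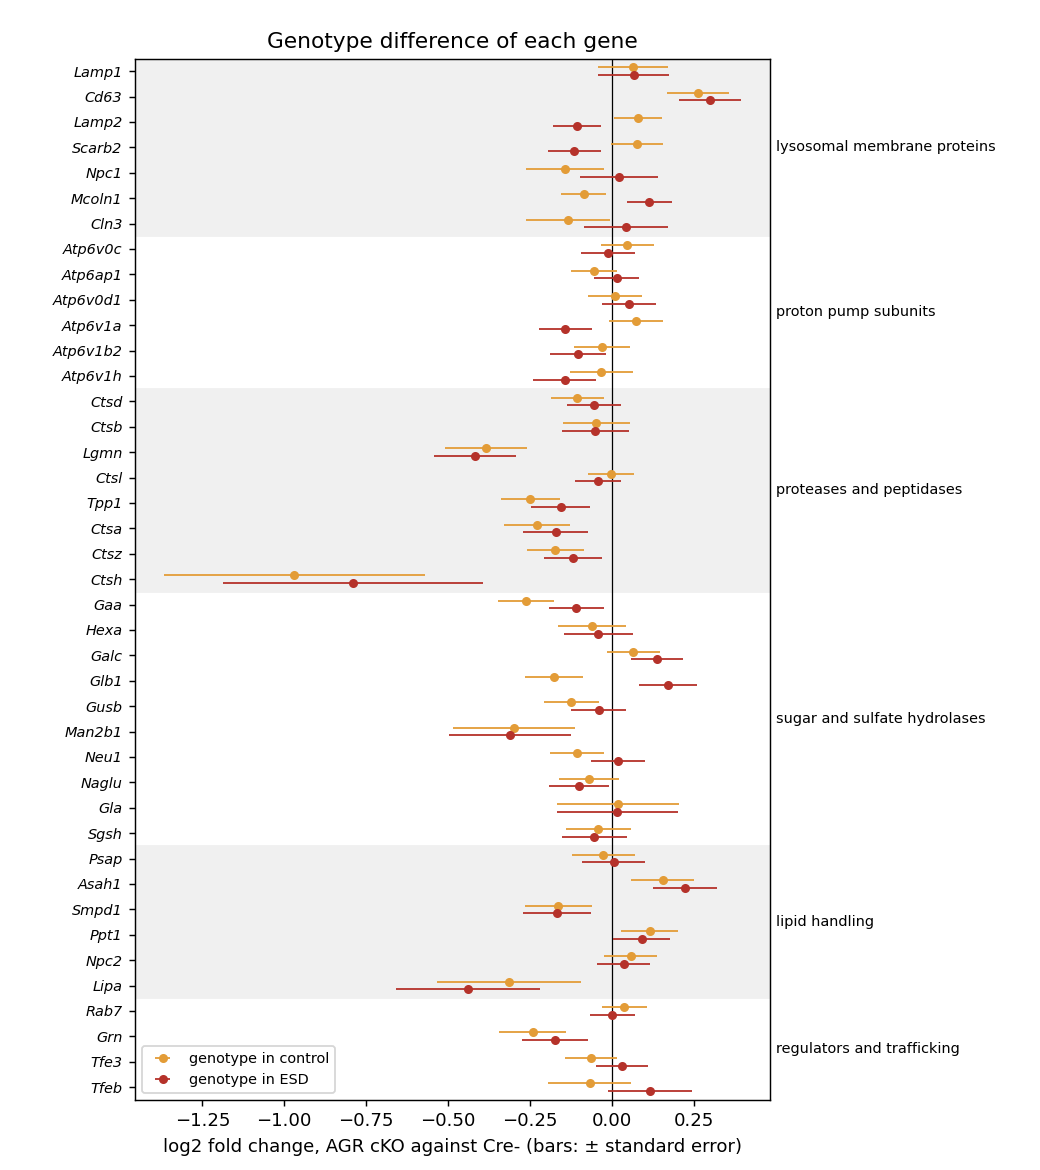
Log2 fold change of AGR cKO against Cre- for each of the 41 genes, in control and in ESD animals, with standard errors as bars and genes ordered by role. Lgmn and Ctsh lie left of 0 and Cd63 right of 0 in both conditions, and the pump subunits lie near 0.

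Separation from the dam was compared next, ESD against control. In edgeR 0 of 41 members were called for the mean of both genotypes (0% of all genes), in Cre- animals (0%) or in AGR cKO animals (0%). DESeq2 called 0 members in each. Over all genes it called 14 higher and 24 lower for the mean, 13 and 13 in Cre- and 3 and 20 in AGR cKO animals. At an unadjusted p under 0.05, 3 members were higher and 0 lower for the mean of both genotypes (4.21% and 6.16% of all genes). In Cre- animals 2 were higher and 1 lower (2.7% and 4.49%), and in AGR cKO animals 0 and 0 (3.25% and 4.33%). Marker lists of other cells moved in these comparisons too, with 0 genes called by edgeR. With ESD 10 of the 12 astrocyte markers were higher for the mean of both genotypes (median 0.10). In Cre- animals 9 were higher and in AGR cKO animals 11, each with a median of 0.11. At an unadjusted p under 0.05 were 1, 0 and 1 of them in these comparisons, and DESeq2 called 0. For the mean of both genotypes all 12 endothelial, 12 neuronal and 6 ependymal markers had lower values with ESD (medians -0.30, -0.36 and -0.50), 1, 2 and 4 of them at an unadjusted p under 0.05, and DESeq2 called 0. In AGR cKO animals the neuronal markers had a median of -0.82, with 7 of 12 at an unadjusted p under 0.05 and 2 called by DESeq2, and those of mural cells and fibroblasts -0.70, with 5 of 10 at that p and 0 called by DESeq2. The part of these lists in the members' values was not tested. The 3 members higher with ESD at that p for the mean of both genotypes were Npc2 at 0.17 ± 0.06 (edgeR adjusted p = 0.447), Ctsb at 0.18 ± 0.07 (0.454) and Gla at 0.29 ± 0.13 (0.475).

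Npc2, which takes cholesterol inside the lysosome and passes it to Npc1, had 133.1, 143.5 and 139.5 CPM in Cre- control and 171.6, 160.5 and 140 in Cre- ESD. It had 141.7, 151.8 and 139.8 CPM in AGR cKO control and 167.6, 163.5 and 153.2 in AGR cKO ESD. The AGR cKO groups did not overlap and the Cre- groups did. Ctsb had 588.7, 667.4 and 575.8 CPM in Cre- control, 722.3, 737.3 and 611.7 in Cre- ESD, 535.3, 612.5 and 625.2 in AGR cKO control and 707.1, 674.9 and 618.6 in AGR cKO ESD, with overlap in both genotypes. Lamp1 had a similar size, 0.16 ± 0.08 (edgeR adjusted p = 0.485).

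The 6 proton pump subunits among the members had values from 0.03 (Atp6v1h) to 0.11 (Atp6v1b2) with ESD for the mean of both genotypes, with 0 at an unadjusted p under 0.05. Atp6v1h lay below 0 in 5 of 21 alternatives, down to -0.11. Of 13 other pump subunits 7 had higher and 6 lower values, with 2 higher and 0 lower at an unadjusted p under 0.05 (4.21% and 6.16% of all genes). In Cre- animals Atp6v1a, the catalytic subunit, had 127.5, 129.2 and 140.9 CPM in control and 158.2, 150.2 and 141.7 with ESD, groups that did not overlap, at 0.18 ± 0.08 (edgeR adjusted p = 0.693). Atp6v1b2 had 79.22, 79.97 and 83.83 CPM in Cre- control and 86.78, 93.46 and 89.41 in Cre- ESD, also without overlap, at 0.15 ± 0.09 (0.721). In AGR cKO animals the values of both overlapped. There Atp6v1a stood at -0.04 ± 0.08 and Atp6v1b2 at 0.08 ± 0.09, and the edgeR interaction for Atp6v1a was -0.22 ± 0.12 (adjusted p = 0.999).

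Counts over all 41 members had no steady direction. With ESD 24 were higher and 17 lower for the mean of both genotypes (median 0.02), 19 and 22 in Cre- (median -0.01) and 27 and 14 in AGR cKO animals (median 0.04). The medians of all genes were -0.01, -0.02 and 0.00 (0.0039). On deposited TPM the first count became 16 higher and 25 lower (median -0.02) and the second 14 and 27 (median -0.05). CPM of the groups did not overlap in Cre- animals for 2 members with a higher value (Atp6v1a and Atp6v1b2; 4.68% of all genes) and 2 with a lower value (Glb1 and Mcoln1; 6.39%). In AGR cKO animals this held for 1 higher (Npc2; 7.94%) and 1 lower (Scarb2; 8.65%).

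Glb1, the beta-galactosidase that clips galactose from gangliosides and keratan sulfate, gave the smallest p among members for separation. It had 48.96, 43.8 and 39.61 CPM in Cre- control, 37.08, 34.58 and 37.01 in Cre- ESD, 36.35, 40.17 and 40.65 in AGR cKO control and 43.14, 38.26 and 41.04 in AGR cKO ESD. The Cre- groups did not overlap and the AGR cKO groups did. The log2 fold change with ESD was -0.28 ± 0.09 in Cre- animals (edgeR adjusted p = 0.627) and 0.06 ± 0.09 in AGR cKO animals. Its interaction, 0.35 ± 0.13, was the only one among members at an unadjusted p under 0.05 (edgeR adjusted p = 0.999), where 2.56% of all genes were higher at that p. Neither edgeR (0% of all genes) nor DESeq2 called an interaction for any member. Over all genes DESeq2 called 3 interactions higher and 6 lower.

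**Figure D4:**
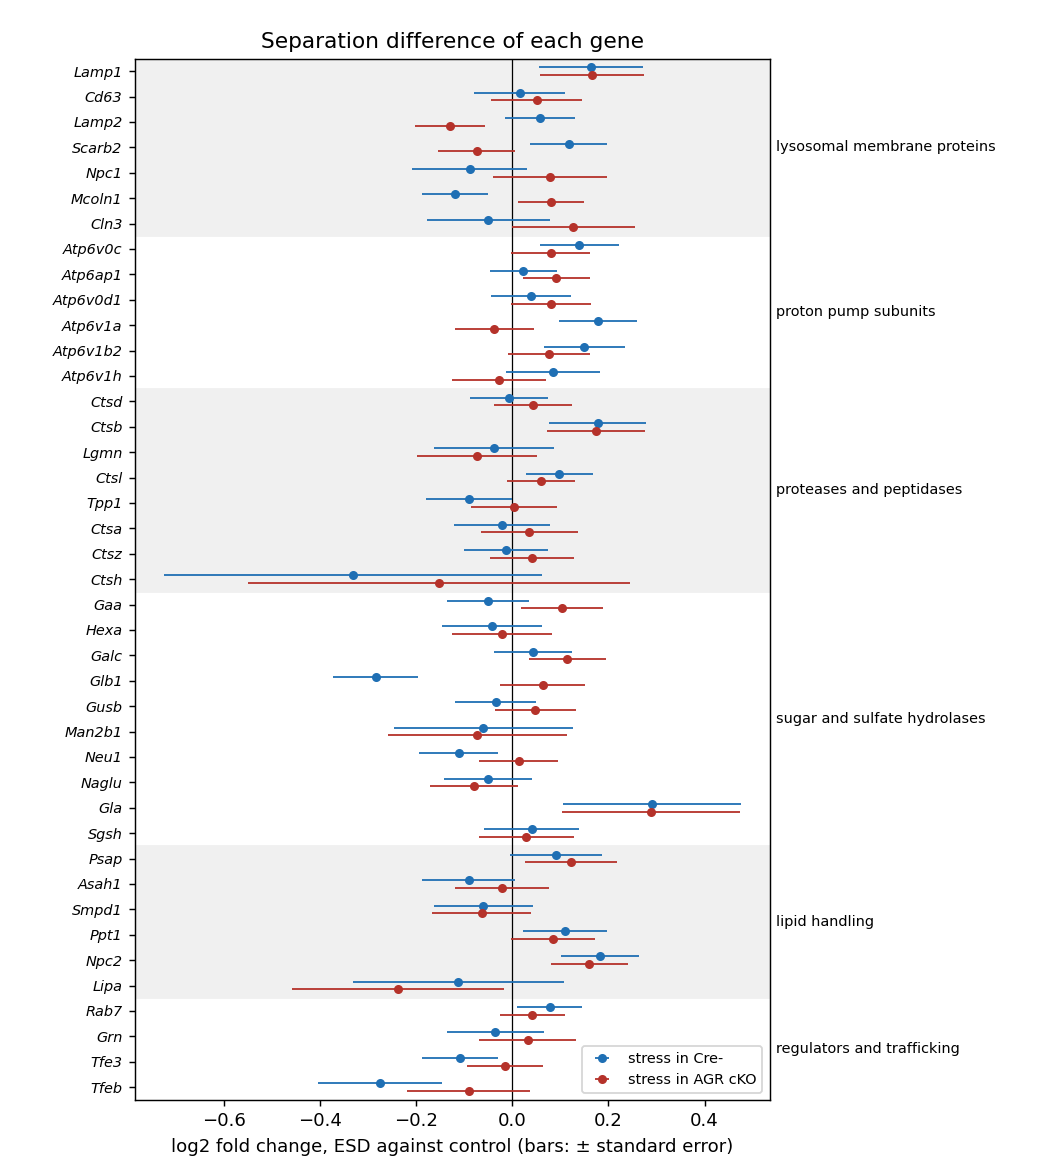
Log2 fold change of ESD against control for each of the 41 genes, in Cre- and in AGR cKO animals, with standard errors as bars. Most values lie within 0.2 of 0; Glb1 is at -0.28 in Cre- and 0.06 in AGR cKO animals, and Gla is at 0.29 in both.

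The other lysosomal genes were taken from a list of 108 in 7 groups, of which 107 were in the table and tested. With receptor loss 40 were higher and 67 lower over both conditions (median log2 fold change -0.03). In edgeR 0 were called higher and 1 lower, where 1.55% and 1.94% of all genes were. In DESeq2 0 were called higher and 9 lower, where it called 9.03% of all genes in either direction. The gene edgeR called was Slc29a3 (chromosome 10, 60712072 to 60752849, mm10), a nucleoside transporter of the lysosomal membrane. It had 81.62, 105.2 and 98.11 CPM in Cre- control and 82.73, 89.51 and 164.2 in Cre- ESD, against 44.54, 47.29 and 54.2 in AGR cKO control and 52.65, 42.54 and 57.73 in AGR cKO ESD. No AGR cKO library reached a Cre- library, and Cre- ESD 3 stood far above the others. The log2 fold change was -1.05 ± 0.16 (edgeR adjusted p = 0.00802), -0.86 without Cre- ESD 3 (0.00317), and -1.19 with the microglia covariate (0.0496). Psap, a member on the same chromosome at 60277628 to 60302600, lay at -0.01 ± 0.07.

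Slc29a3 was also called within ESD animals, at -1.14 ± 0.23 (edgeR adjusted p = 0.0431), and reached -0.76 without Cre- ESD 3 (0.0697). In control animals it stood at -0.96 ± 0.23, not called by edgeR (adjusted p = 0.232) and called by DESeq2 (0.00656). Over both conditions Cd68, a macrophage lysosomal glycoprotein, stood at -0.98 ± 0.26 (edgeR adjusted p = 0.0674, DESeq2 0.00521). The group of 5 lysosomal genes abundant in microglia, Cd68 among them, summed to 64.09 to 163.8 CPM (Cre- control), 30.72 to 77.91 (AGR cKO control), 81.46 to 145.3 (Cre- ESD) and 27.48 to 75.34 (AGR cKO ESD). All 5 were lower over both conditions, 4 at an unadjusted p under 0.05 (11.3% of all genes were lower at that p). In control animals the next 2 after Slc29a3 were Rragd, a GTPase that docks mTORC1 at the lysosome, at 0.44 ± 0.17 (edgeR adjusted p = 0.396) and Pla2g15, a phospholipase, at -0.40 ± 0.15 (0.4). With ESD they were Atp13a2, a polyamine exporter, at 0.31 ± 0.09 (edgeR 0.139, DESeq2 0.0498) and Atp6v0e, a pump subunit, at -0.53 ± 0.18 (edgeR 0.183). DESeq2 also called Cd68 there (adjusted p = 0.049).

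For separation edgeR and DESeq2 each called 0 of the 107 in each of the 3 comparisons. At an unadjusted p under 0.05, 9 were higher and 4 lower for the mean of both genotypes (4.21% and 6.16% of all genes). In Cre- animals 3 were higher and 5 lower (2.7% and 4.49%), and in AGR cKO animals 5 and 4 (3.25% and 4.33%). The smallest p for the mean belonged to Slc11a2, an iron transporter, at 0.19 ± 0.05 (edgeR adjusted p = 0.438), Lamtor1, an anchor of mTORC1, at 0.22 ± 0.06 and Manba, a mannosidase, at -0.37 ± 0.12. In Cre- animals Fuca2 stood at 0.33 ± 0.11, Tcirg1 at -0.28 ± 0.10 and Slc11a2 at 0.21 ± 0.07. In AGR cKO animals the protease gene Ctsk stood at -0.79 ± 0.22 (adjusted p = 0.647), Lamtor1 at 0.25 ± 0.09 and Fuca1, a fucosidase, at 0.29 ± 0.10. The interaction of Ctsk was -0.95 ± 0.31 (adjusted p = 0.999), that of Tcirg1 0.32 ± 0.13 and that of Ids -0.27 ± 0.13.

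Transcript estimates were described, not tested, since their error is not given. The 41 genes have 153 annotated transcripts in the deposited table; 11 genes have 1, and in 28 the leading transcript held at least 90% of the gene's TPM over the 12 libraries. Lgmn (98.98%) and Cd63 (93.84%) were among these. Lamp2 showed the clearest pattern by group. Its transcript variants 1 and 2 differ at their 3′ ends, and Lamp2 splice forms are known to encode proteins with different tails. Variant 1 took 23.09%, 22.87% and 25.15% of Lamp2 TPM in Cre- control and 19.94%, 17.59% and 17.46% in Cre- ESD. In AGR cKO animals it took 13.67%, 15.95% and 18.82% in control and 20.52%, 23.65% and 20.62% with ESD. So its share was lower with ESD in Cre- and higher with ESD in AGR cKO animals, without overlap in either. The summed CPM of the 12 neuronal markers was 30.19 to 37.16 (Cre- control), 33.2 to 47.08 (Cre- ESD), 45.58 to 61.87 (AGR cKO control) and 28.63 to 33.38 (AGR cKO ESD), so it overlapped between control and ESD in Cre- and was lower with ESD, without overlap, in AGR cKO animals. For the interaction 11 of the 12 were lower (median -0.9965), with 5 at an unadjusted p under 0.05, 0 called by edgeR and 1 by DESeq2. Markers of mural cells and fibroblasts were lower for the interaction in 10 of 10 (median -0.56, 0 at that p). Those of oligodendrocyte precursors were lower in 5 of 6 (median -0.72, 1 lower at that p). With ESD both sums were lower in AGR cKO animals, 1605 to 3610 against 4437 to 5133 CPM and 128.8 to 225.1 against 275.6 to 319.8. In Cre- animals both sums overlapped. The part of these lists in the Lamp2 shares was not tested.

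Variant 2 mirrored it, with 73.05%, 73.02% and 70.99% in Cre- control, 75.34%, 78.19% and 75.48% in Cre- ESD, 79.1%, 78.67% and 74.86% in AGR cKO control and 73.44%, 71.48% and 73.93% in AGR cKO ESD. The genotypes also did not overlap within control or within ESD animals, in opposite directions. Lamp2 as a gene differed little: its log2 fold change with ESD was 0.06 ± 0.07 in Cre- and -0.13 ± 0.07 in AGR cKO animals (edgeR adjusted p = 0.894 and 0.734). Of 32 member transcripts with a mean share of 10% to 90%, 3 did not overlap between ESD and control in Cre- (11% of 12485 such transcripts of all genes) and 6 in AGR cKO animals (11.2%). The 2 of Lamp2 were those without overlap in both genotypes in opposite directions, which 0.585% of the 12485 showed. All 4 comparisons had this form for 0.192%. Both shares come from 1 gene and sum to nearly all of it, so they are 1 observation.

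**Figure D5:**
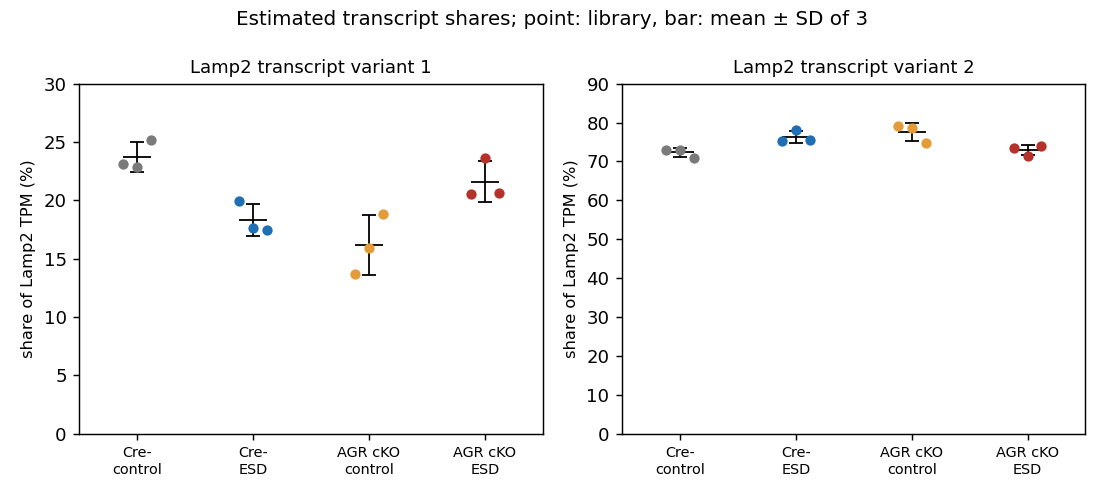
Share of Lamp2 TPM held by transcript variants 1 and 2 in each library, with the mean ± SD of 3 libraries per group. Variant 1 lies at 13.67% to 18.82% (AGR cKO control) and 17.46% to 19.94% (Cre- ESD), below Cre- control and AGR cKO ESD, and variant 2 is the mirror image.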

How the data were processed

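Gene and transcript tables were deposited with whole-number read counts, for which no normalization is given. FPKM (not tested here) and TPM, which the authors scaled by length and library, stand beside them per the file headers. Build mm10 and the tools StringTie 1.3.4b, HISAT2 2.1.0, HISAT, Bowtie2, Trimmomatic and DESeq2 are named, without roles, in the submitters' processing notes; the counting method and its use of strand are not given in the sources used here. Column names give condition and "cre_M" or "cre_P", read as Cre minus and plus; genotype entries whose number counts up with the replicate were read as the genotype in the titles. Nothing states that replicates are separate animals, so p-values measure only the spread between these samples.

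Genes were filtered with filterByExpr and scaled by TMM, and edgeR 4.0.16 (R 4.3.3) fitted 1 mean per group over 12 libraries, with 8 residual degrees of freedom, two-sided, called at an adjusted p under 0.05. An exact permutation test of 3 against 3 cannot go below 0.1. CPM use TMM-scaled library sizes, and standard errors are the fold change over the root of F. Counts were simulated over 19163 genes from each gene's mean and dispersion in these libraries. The genes changed between the genotypes were picked at random from those above a minimum mean CPM, so less abundant genes were not covered. For the genotype average comparison the fit called 29 of 100 genes changed 1.3-fold and 96 of 100 changed 2-fold. The members, whose median SD within groups was 0.105 against 0.215 for all genes tested, were not simulated as a set, so these shares are not theirs. Members and lists were chosen with earlier results of these data known. All 41 members are named, as are other lysosomal genes that were called and, where few were, the 3 with the smallest p; 1 gene under this rule is not reported here. Alternatives were DESeq2 1.42.0, other scalings and filters, a replicate block, a microglia covariate, limma 3.58.1 on log2(TPM + 1) and log2(TPM + 0.1), only the groups compared, and each library left out.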

Additional observations from a re-analysis of the deposited data

Results flagged for a closer look

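The share of Lamp2 TPM estimated for transcript variant 1 moved in opposite directions with separation in the 2 genotypes, and every library of each ESD group lay on 1 side of its controls. The mean difference was -5.37 percentage points in Cre- and 5.45 in AGR cKO animals. For variant 2 it was 3.98 and -4.59 percentage points. The difference between the genotypes was not tested, and the error of the transcript estimates is not given. Transcript shares of some other members differed widely between libraries of 1 group.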

How the results depend on the processing

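The count of members called for receptor loss over both conditions was 2. It was 4 in DESeq2 (Tpp1 and Gaa in addition, adjusted p = 0.0423 and 0.0469), where 9.03% of all genes were called. With upper-quartile scaling and with no filter it was 1, in both cases Lgmn. On log2(TPM + 1) and on log2(TPM + 0.1) it was 1, in both cases Cd63 and not Lgmn. With the microglia covariate it was 0, where 0.334% of all genes were called. It was 0 to 3 with each library left out, and 2 with median-of-ratios scaling or a minimum of 1 CPM in 6 libraries. The call of Cd63 was lost in 13 alternatives and that of Lgmn in 9. Lgmn had an adjusted p of 0.0278 to 0.0965 and a log2 fold change of -0.45 to -0.34 with a library left out, and Cd63 0.023 to 0.108 and 0.23 to 0.33. Over all genes the count was 668 and ranged from 151 to 932 with a library left out. With the microglia covariate 11 members turned positive and 4 negative over both conditions, 6 and 3 in control and 9 and 7 in ESD animals. Among those at an unadjusted p under 0.05 without it, the values of Ctsh (0.0863), Lipa (0.0163), Man2b1 (0.1183) and Ctsz (0.0168) over both conditions and of Ctsh in control animals (0.0217) turned positive. For receptor loss within ESD animals DESeq2 called 1 member, Lgmn, where edgeR called 0. The 5 other counts of members called were 0 in every alternative run. The call of Slc29a3 within ESD animals was lost in 14 alternatives, among them only the groups compared (adjusted p = 0.171).

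Replicate numbers are shared across groups, but deviations of same-numbered libraries correlated between -0.104 and 0.227, so the numbers were not taken as pairs. With a replicate block 1 member was called (Lgmn, adjusted p = 0.0429; Cd63 0.0559), and 799 genes in all. At 42603546 to 52130081 counts per library, how depth and the number of libraries each limit these tests was not tested. For receptor loss over both conditions, 29 of 100 simulated 1.3-fold differences were called. The changed genes were picked at random above a minimum mean CPM and were not the members as a set.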
